A study of Rattus norvegicus with 8 samples.

Results

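Emx2 and 9 other homeobox genes of the developing forebrain (Emx1, Dlx1, Dlx2, Dlx5, Dlx6, Six3, Meis2, Pax6 and Lhx1) were followed in the medial thalamus of 8 rats. The occlusion group was 4 conscious male Sprague-Dawley rats whose trachea was blocked briefly and repeatedly in daily sessions over 10 days, with runs of 3 to 10 blocked breaths and about 30 s of recovery between them. The control group was 4 surgical controls of the same strain and sex that had daily sessions without occlusions. Death followed the final session by no more than 10 min in both groups, and RNA of each was hybridised to 1 single-colour Agilent oligonucleotide array. No age, transgene or drug treatment before the final anaesthetic overdose is named in the labels. The genes were taken by the names the scanner files give to non-control probes. Read literally, these names gave 7 of the 10 genes, and the synonyms of a rat gene table added Emx2 and Emx1, which the files carry under predicted-locus names. In all, 9 of the 10 genes had a probe, 10 of 41012 distinct probes, and no probe was matched to Dlx6. The members were chosen with the occlusion and control values of these arrays in view, so those values are given here as a description.

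Homeobox genes encode transcription factors that bind DNA through a homeodomain, a fold of helices whose last helix lies in the major groove. In the embryonic forebrain they divide the tissue into territories: Emx genes mark dorsal telencephalon, Pax6 the dorsal telencephalon and parts of the diencephalon, and Dlx genes the ventral telencephalon and the prethalamus, where inhibitory neurons arise. The thalamus proper makes mainly excitatory relay neurons, while the reticular nucleus that wraps it and the zona incerta below it come from the prethalamus and are inhibitory. In an adult dissection, transcripts of such genes can therefore depend on which cell populations the piece of tissue holds as well as on how strongly each cell transcribes them. Of 14 relay neuron markers on the array 12 were measured well enough to be kept. Among them were Slc17a6, the vesicular glutamate transporter of thalamic relay cells, and Prkcd, a protein kinase C of the same cells. Both were well above background on all 8 arrays and saturated on 4 of them. Markers of nearby regions were kept too, 12 of 14 hypothalamic and 9 of 9 habenular, so this does not tell the thalamus from its surroundings.

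The probes are what the measurements rest on, and they are shown because the 2 probes for Emx2 read very differently. Each is 60 bases long, written 5′ to 3′ as the files give it, and the positions are those of the files (rat assembly rn3). Which part of the gene each probe covers was not analysed here. The brighter Emx2 probe (A_44_P915344) lies at chr1:266222114-266222173 on the plus strand and the dimmer one (A_44_P349348) at chr1:266220817-266220876, 1238 bases before it. The dimmer probe is shown whole, with CAGAACCG in capitals. Read as codons these letters begin with glutamine and asparagine, residues of the last helix of most homeodomains. The same 8 letters were found on either strand of 46 of the 41012 probes (0.112%) and in 1 of 125 probes for the listed homeobox genes. For the other members the first 30 bases are shown, none in capitals.
Emx2, brighter probe: ttcaagcactgagtttctcttccaagacca
Emx2, dimmer probe: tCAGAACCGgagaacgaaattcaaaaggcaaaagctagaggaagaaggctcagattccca
Pax6: acacaggctgttggatcttggatctgtgtt
Lhx1: tgccaacgtatcggataaggaaggtggtag
Dlx1: cagcgcgctggcgaatggcagggccttgtc
Dlx5: acccttttttgcgcaactgtggacactatc
Six3: gcaacttccgagacctgtaccacatcctgg
Meis2: ctgtagcataaacatagggactaagttaaa
The Pax6 probe lies at chr3:91045183-91045242 (plus), that of Lhx1 at chr10:72817272-72817331 (minus), that of Dlx1 at chr3:53736394-53736453 (plus), that of Dlx5 at chr4:31897141-31897200 (minus), that of Six3 at chr6:9016949-9017008 (plus) and that of Meis2 at chr3:101813250-101813309 (minus).

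A level below is the log2 of a spot's processed intensity over the 75th percentile of its array, so a level of 0 equals that percentile and each unit is a 2-fold step. A difference is the mean level on occlusion arrays minus that on control arrays, with its standard error (SE) from limma and n = 4 in each group. The arrays were similar in depth: the 75th percentile of processed intensity ran from 1370 to 2134, 65.0% to 71.6% of spots were well above background and 1.05% to 1.55% were saturated. The arrays lay on 2 slides, each with 2 arrays of either group and its own scan. The first principal component (38.0% of the variance) separated the slides, and within each slide it separated the groups. The differences of the kept members are therefore also given within slides. Slide 1 held occlusion 1 and 3 with control 1 and 4, and slide 2 held occlusion 2 and 4 with control 2 and 3. Over all genes, 0 of 27161 probes passed limma at an adjusted p under 0.05 (0.0%), and the smallest adjusted p was 0.414. Without adjustment 1016 probes were lower (3.74%) and 1914 higher (7.05%) at a p under 0.05. Nothing that follows passed the adjusted test between the groups, and directions are those of the measured means.

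Of the 10 member probes 7 passed the filter on dim probes, 1 each for Emx2, Dlx1, Dlx5, Six3, Meis2, Pax6 and Lhx1. Of these 7, 6 had a lower and 1, Dlx1, a higher mean on occlusion arrays, where 43.4% of all kept probes were lower. The groups did not overlap for 1 of the 7, Emx2, where occlusion arrays all lay below control arrays for 2.25% of probes and all above for 4.12%. The members' median difference was -0.69, against 0.04 over all kept probes. Since the members were chosen on this contrast, these counts describe the choice.

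**Figure D1:**
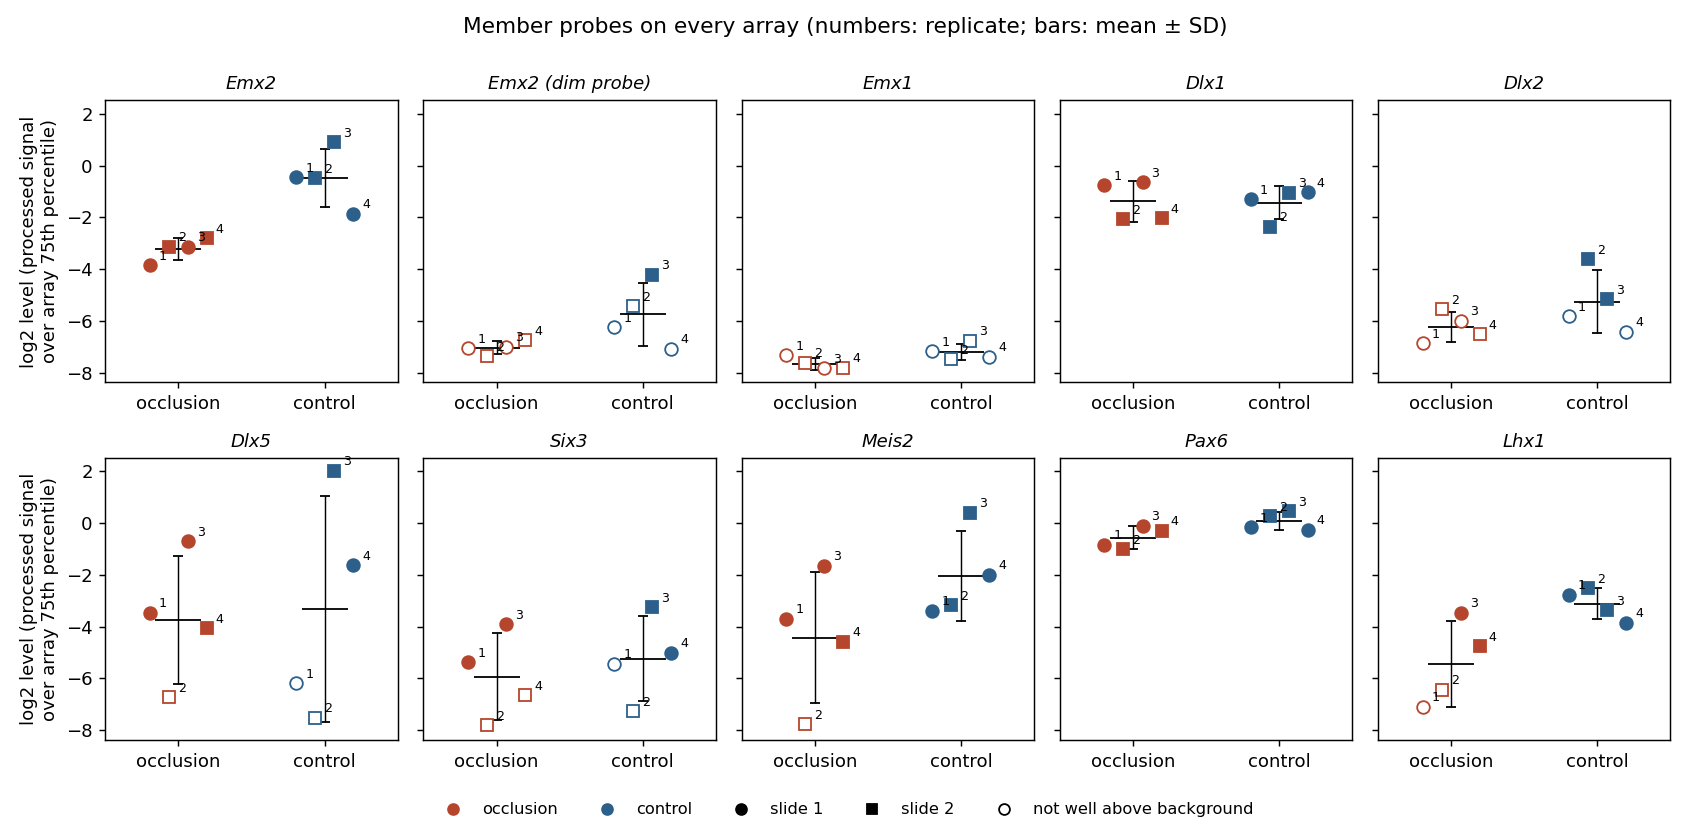
Log2 level of each of the 10 member probes on every array, with occlusion arrays left of control arrays, circles for slide 1, squares for slide 2, open marks where the spot was not well above background, and bars for mean ± SD (n = 4). The 4 occlusion arrays of the brighter Emx2 probe sit between -3.84 and -2.80, below all control arrays, while Dlx5, Six3 and Meis2 spread widely inside each group.

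Emx2, which patterns the dorsal telencephalon and is needed for the hippocampus, had the clearest separation. Its brighter probe read -3.84, -3.14, -3.13 and -2.80 on occlusion arrays 1 to 4, against -0.45, -0.49, 0.90 and -1.86 on control arrays 1 to 4. In processed intensity these were 101.9, 173.9, 156.9 and 307.2 units on occlusion arrays, against 1316.4, 1211.4, 3417.9 and 520.6 units on control arrays. The occlusion arrays lay close together, and control 4 was the control array nearest to them and control 3 the farthest. The mean level was -3.23 ± 0.44 (SD) on occlusion arrays and -0.47 ± 1.13 on control arrays, a difference of -2.76 (SE 0.52, 6.75-fold lower, limma adjusted p = 0.414). It ranked 22 among all kept probes by p and had the fourth lowest difference. Slide 1 alone gave -2.33 and slide 2 alone -3.18, and without control 3 it was -2.30. The full range over 8 arrays was 26.8-fold.

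The dimmer Emx2 probe was well above background on 0 of 4 occlusion arrays and on 1 of 4 control arrays, control 3. Its levels were -7.05, -7.37, -7.01 and -6.76 on occlusion arrays, against -6.26, -5.43, -4.22 and -7.08 on control arrays. Control 3 was again the highest, and the groups overlapped through control 4. No fold is given, since the control mean did not reach the lowest level well above background on occlusion arrays. Emx1, the paralogue that marks the cortical excitatory lineage, did not stand well above background on any of the 8 arrays (probe A_44_P508372, chr4:119665200-119665257). Its levels were -7.34, -7.62, -7.83 and -7.82 on occlusion arrays, against -7.17, -7.48, -6.77 and -7.39 on control arrays. Those values are at the background, so they give no order of the groups.

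Pax6 encodes a factor with a paired domain and a homeodomain that acts in dorsal progenitors and in diencephalic territories. Its levels were -0.84, -0.996, -0.09 and -0.29 on occlusion arrays, against -0.14, 0.27, 0.46 and -0.25 on control arrays. Occlusion 3 lay inside the control range and occlusion 4 just below it, so the groups overlapped. The mean was -0.55 ± 0.43 (SD) on occlusion arrays and 0.08 ± 0.33 on control arrays, a difference of -0.64 (SE 0.25, 1.56-fold lower, limma adjusted p = 0.427). Slide 1 alone gave -0.27 and slide 2 alone -1.01. Lhx1, a LIM-homeodomain factor of the early head organiser and of prethalamic neurons, read -7.10, -6.43, -3.46 and -4.75 on occlusion arrays, against -2.76, -2.502, -3.35 and -3.85 on control arrays. It was well above background on all 4 control arrays and on 2 of 4 occlusion arrays, occlusion 3 and 4, and occlusion 3 alone lay inside the control range. The mean was -5.44 ± 1.65 (SD) on occlusion arrays and -3.12 ± 0.60 on control arrays, a difference of -2.32 (SE 0.75, limma adjusted p = 0.414). Since 2 occlusion arrays were at the background the size is uncertain, and with normexp background correction it was -0.98. Slide 1 alone gave -1.97 and slide 2 alone -2.66.

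The Dlx genes encode distal-less factors that drive inhibitory neuron fates, and Dlx1 and Dlx2 are neighbours in the genome (their probes start 13678 bases apart on chromosome 3). Dlx1 was well above background on all arrays and read -0.77, -2.08, -0.64 and -2.04 on occlusion arrays, against -1.29, -2.36, -1.05 and -1.03 on control arrays. The occlusion arrays split by slide, with 1 and 3 high and 2 and 4 low. The means were -1.38 ± 0.79 (SD) on occlusion arrays and -1.43 ± 0.63 on control arrays, a difference of 0.05 (SE 0.43, limma adjusted p = 0.978). Dlx2 (probe A_44_P290403, chr3:53750072-53750131) was well above background on 0 of 4 occlusion and 2 of 4 control arrays. Its levels were -6.87, -5.55, -6.00 and -6.53 on occlusion arrays, against -5.82, -3.62, -5.17 and -6.43 on control arrays. Control 2 and control 3 were the arrays with signal. No fold is given, since the other control arrays were at the background too.

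Dlx5 varied far more between animals than between groups. It read -3.45, -6.73, -0.68 and -4.05 on occlusion arrays, against -6.18, -7.52, 2.03 and -1.62 on control arrays, and was well above background on 3 of 4 occlusion and 2 of 4 control arrays. Control 3 was at least 173-fold above control 2, whose spot was at the background. The means were -3.73 ± 2.48 (SD) on occlusion arrays and -3.32 ± 4.37 on control arrays, a difference of -0.41 (SE 2.13, limma adjusted p = 0.961), and without control 3 the difference was 1.38.

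Six3, which sets up the anterior forebrain and eye field and is kept in striatal neurons, was well above background on 2 of 4 arrays in each group. Its levels were -5.37, -7.80, -3.89 and -6.64 on occlusion arrays, against -5.43, -7.27, -3.25 and -5.00 on control arrays. The groups covered nearly the same range, and the means were -5.93 ± 1.68 (SD) on occlusion arrays and -5.24 ± 1.65 on control arrays, a difference of -0.69 (SE 0.999, limma adjusted p = 0.836), which was -0.02 without control 3. Meis2, a TALE-class homeobox factor that works with Pbx proteins and is abundant in striatal and other ventral forebrain neurons, read -3.69, -7.77, -1.63 and -4.58 on occlusion arrays, against -3.39, -3.17, 0.41 and -1.99 on control arrays. Occlusion 2 was the one array at the background, and control 3 was at least 59.2-fold above it. The mean was -4.42 ± 2.55 (SD) on occlusion arrays and -2.03 ± 1.74 on control arrays, a difference of -2.38 (SE 1.31, limma adjusted p = 0.532). Without control 3 it was -1.57 and without occlusion 2 it was -1.27.

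Within slides, 3 of the 7 kept members had the same sign on both slides, Emx2, Pax6 and Lhx1. Meis2 was at 0.02 within slide 1 and -4.79 within slide 2, Dlx5 at 1.83 and -2.65, Six3 at 0.59 and -1.96, and Dlx1 at 0.45 and -0.35. For all 7 the difference was more negative within slide 2, the slide that held control 3, the highest array for 5 of the 7 members, and occlusion 2, the lowest array for 3 of them. The slide itself, which the choice of members did not use, was tested in a fit of group and slide. There 1953 of all 27161 kept probes (7.19%) differed between the slides at a limma adjusted p under 0.05, and 0 of the 7 members did. The slide difference nearest to the threshold was that of Dlx1, with a mean level of -0.93 on slide 1 and -1.88 on slide 2, a difference of 0.95 (SE 0.29, limma adjusted p = 0.126). Emx2 averaged -2.32 on slide 1 and -1.38 on slide 2, a difference of -0.94 (SE 0.42, limma adjusted p = 0.323).

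**Figure D2:**
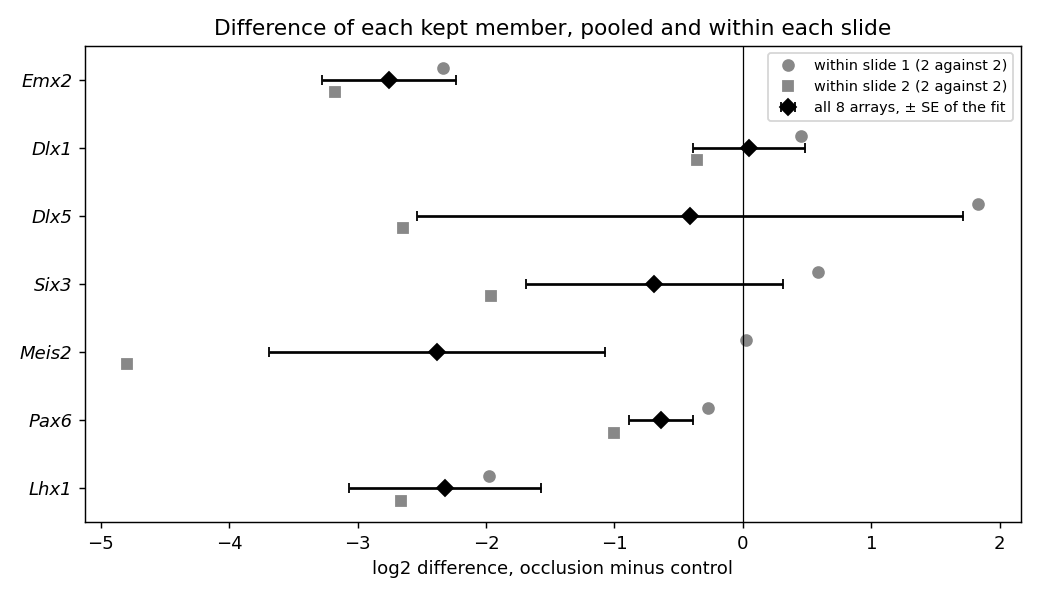
Log2 difference, occlusion minus control, of each kept member over all 8 arrays (diamond, with ± SE of the limma fit) and within slide 1 (circle) and slide 2 (square), where each value sets 2 arrays against 2. Emx2, Pax6 and Lhx1 lie left of 0 on both slides, and the other 4 members have their slide 1 value right of 0.

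The spread of the members over all 8 arrays was large for this tissue. The SD over the arrays was 1.67 for Emx2, 3.30 for Dlx5, 2.39 for Meis2, 1.69 for Lhx1 and 1.58 for Six3, against a median of 0.26 over all kept probes. Emx2 varied more than 99.6% of kept probes and Meis2 more than 99.9%. Dlx1 (SD 0.66) and Pax6 (SD 0.49) varied more than 89.4% and 81.0% of them. These SDs include any difference between the groups, on which the members were chosen, so the ranks follow in part from the choice. Within groups the SD of Emx2 was 0.44 on occlusion and 1.13 on control arrays. Of the kept members, Emx2, Dlx1 and Pax6 were well above background on all 8 arrays, while part of the SD of Dlx5, Six3, Meis2 and Lhx1 comes from spots at the background, whose levels have no order.

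Which members followed Emx2 was described by Pearson's r and Spearman's rho over the 8 arrays, which share slides, scaling and tissue dissection. Because the groups of Emx2 do not overlap, a gene that differs between the groups correlates with it for that reason alone, so r with the group means removed, and with group and slide means removed, stands beside it for the kept members. The dimmer Emx2 probe followed the brighter one at r = 0.893 (rho 0.786), and at 0.891 with group means removed, though it was well above background on 1 array. Pax6 followed Emx2 at r = 0.826 (rho 0.786), at 0.636 with group means removed and at 0.614 with slide means removed too. Lhx1 followed it at r = 0.753 (rho 0.833), with 0.331 and 0.416 after these steps. Meis2 had r = 0.568 (rho 0.571), with 0.246 and 0.581 after them. Six3 had r = 0.303 (rho 0.286), which was 0.214 with group means removed and 0.729 with slide means removed too. Dlx5 had r = 0.181 (rho 0.119), with 0.259 and 0.486 after these steps, and Dlx1 r = -0.121 (rho -0.262), with -0.182 and 0.622. Which members follow Emx2 thus depended on whether the slide was taken out, and Pax6 was the kept member whose r was above 0.6 in all 3 forms. Without control 3 and control 1, the arrays farthest from the Emx2 median, r was 0.779 for Pax6, 0.802 for Lhx1, 0.279 for Meis2, -0.307 for Six3, -0.407 for Dlx5 and -0.533 for Dlx1. Emx1 (r = 0.745, rho 0.548, 0.407 with group means removed and 0.206 without the 2 arrays) and Dlx2 (r = 0.622, rho 0.595, 0.421 with group means removed) rest on spots at the background. For Dlx5, Six3, Meis2 and Lhx1 the r rests on such spots in part.

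Among themselves, Dlx1, Dlx5, Six3 and Meis2 were related pair by pair. Six3 was well above background on 4 of the 8 arrays, Dlx5 on 5, Lhx1 on 6 and Meis2 on 7. Levels at the background have no order, so each r of these genes rests in part on such spots. Dlx5 and Six3 had r = 0.899 over the arrays, Six3 and Meis2 0.874, Dlx1 and Six3 0.857, Dlx5 and Meis2 0.771, Dlx1 and Dlx5 0.718, and Dlx1 and Meis2 0.592. With the group means removed the same pairs read 0.911, 0.912, 0.891, 0.871, 0.722 and 0.725. With slide means removed too they read 0.947, 0.915, 0.953, 0.871, 0.936 and 0.822, and without control 3 they read 0.839, 0.802, 0.927, 0.610, 0.795 and 0.594. Pax6 and Lhx1 had r = 0.882, which was 0.763 with group means removed and 0.942 without control 3. Pairs between these genes and Pax6 or Lhx1 ranged from little relation, as for Dlx1 and Pax6 (0.018), Dlx1 and Lhx1 (-0.057) and Dlx5 and Lhx1 (0.106), through Six3 and Pax6 (0.480) and Meis2 and Lhx1 (0.594), to Meis2 and Pax6 (0.793), so the 7 genes do not divide cleanly. Dlx5 and Six3 both had their highest levels on occlusion 3, control 3 and control 4. Both were at the background on occlusion 2, control 1 and control 2, and Six3 on occlusion 4 too.

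**Figure D3:**
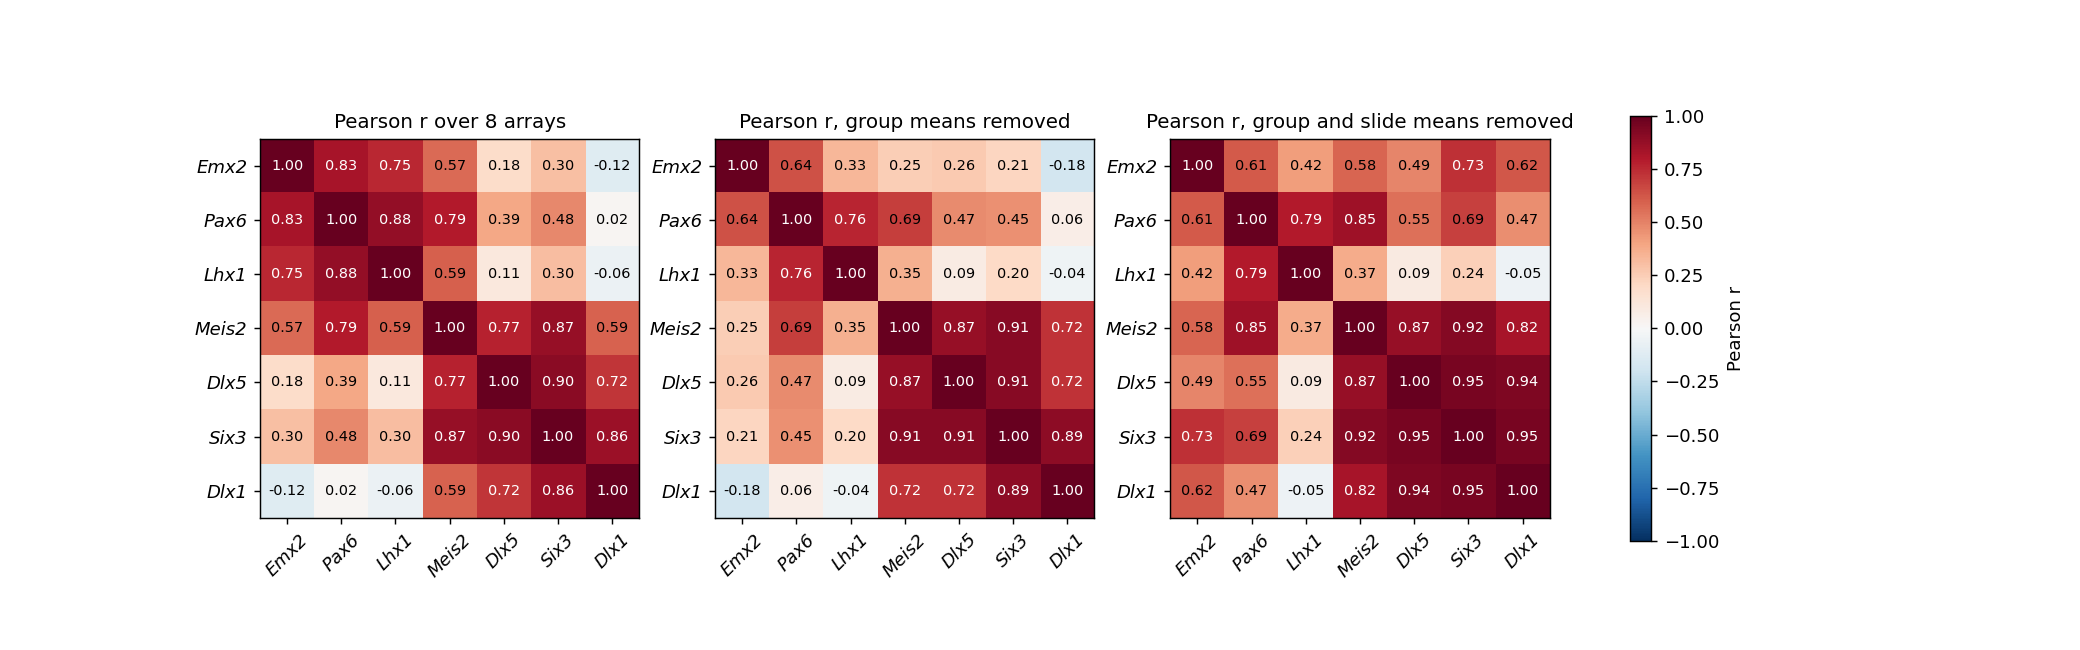
Pearson r between the 7 kept members over 8 arrays, as measured (left), with each group's mean removed (middle) and with group and slide means removed (right). The weakest pair among Meis2, Dlx5, Six3 and Dlx1 is Dlx1 and Meis2 as measured (0.592), and the r of Six3 with Emx2 is 0.303, 0.214 and 0.729 from left to right.

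By a fixed rule, the genes most like Emx2 were sought among 1477 named genes that were well above background on all 8 arrays and had an SD of at least 0.5, of which 37 had an r above 0.9. The highest were the predicted loci RGD1561325 (r = 0.972) and RGD1305311 (0.971), then Cfap45 (0.969) and Cfap126 (0.959), whose products are associated with cilia and flagella, and Efhb (0.958), an EF-hand protein. Nrgn, the postsynaptic calmodulin-binding protein neurogranin, had r = 0.950, Sult1a1, a phenol sulfotransferase, 0.945 and Synj2, an inositol phosphatase, 0.945. Their levels all differed in the direction of Emx2, from -0.78 (SE 0.23) for RGD1305311 to -1.05 (SE 0.31) for Synj2, none passing (limma adjusted p = 0.414). These genes were chosen by r with Emx2, whose groups do not overlap, so that shared direction follows from the choice. Cfap45, for example, read -0.72, -0.32, -0.56 and -0.56 on occlusion arrays, against 0.43, 0.38, 0.79 and -0.37 on control arrays, with control 4 nearest to the occlusion arrays as for Emx2. With group means removed the leading genes were RGD1561325 (0.985), RGD1305311 (0.949), Vwa3a (0.942), which encodes a von Willebrand factor A domain protein, and Nrgn (0.941).

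The other homeobox genes did not share one direction. Of 107 listed, 96 were on the array and 68 were kept, while 14 stood at the background on all 8 arrays. Of the 68, 40 were higher and 28 lower on occlusion arrays, with a median difference of 0.04, the same as over all kept probes. None passed the adjusted test. Unadjusted, 6 of 68 were higher and 3 lower at a p under 0.05, beside 7.05% and 3.74% of all kept probes, and groups did not overlap for 3 higher and 1 lower, beside 4.12% and 2.25%. Both higher counts include Prox1, which was well above background on 0 of 4 control arrays. Both lower counts include Rax, which was well above background on 1 of 4 occlusion arrays. For these genes the lack of overlap rests on spots at the background. Those with the lowest moderated statistic were Msx1, a target of BMP signalling (-0.97, SE 0.28), Rax, a factor of the eye field and of hypothalamic tanycytes (-1.29, SE 0.49), Pou3f3, a POU factor of neural progenitors and cortical neurons (-0.60, SE 0.23), and Hopx, an unusual homeodomain protein of stem cells and astroglia (-0.49, SE 0.24). Rax was well above background on 1 of 4 occlusion and 3 of 4 control arrays and read -0.78 without occlusion 4, -0.70 within slide 1 and -1.87 within slide 2. Hopx read -0.25 without control 3. Msx1 followed Emx2 at r = 0.913 (0.755 with group means removed) and Pou3f3 at 0.824 (0.612).

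At the other end stood Zfhx2, a zinc finger homeobox gene (0.79, SE 0.18), Prox1, a factor of dentate granule cells and thalamic neurons, Shox2, a factor of thalamic relay neurons, and Hmbox1, a telomere-binding homeobox protein (0.71, SE 0.21). Hmbox1 was well above background on 4 of 4 occlusion and 1 of 4 control arrays, so the size of its difference is uncertain. Shox2 read 1.53, 1.21, 0.85 and 0.99 on occlusion arrays, against -0.10, -0.61, -1.20 and 0.75 on control arrays. The groups did not overlap, though occlusion 3 and control 4 were close, and the difference was 1.44 (SE 0.38, limma adjusted p = 0.414), with 0.86 within slide 1 and 2.01 within slide 2. Prox1 was well above background on all 4 occlusion arrays and on none of the 4 control arrays, so it passed the filter through the occlusion arrays alone. Its levels were -3.45, -4.28, -4.20 and -4.62 on occlusion arrays, against -5.29, -5.83, -6.76 and -4.95 on control arrays. It was at least 2.25-fold higher on occlusion arrays, with a mean of -4.14 against a floor of -5.31 on control arrays (measured mean -5.71, limma adjusted p = 0.414). Over the 8 arrays Shox2 ran opposite to Emx2 at r = -0.973, which was -0.944 with group means removed and -0.908 with slide means removed too. Zfhx2 had r = -0.865, and -0.438 with group means removed. No r is given for Prox1, whose control spots have no order. With normexp background correction the dimmer genes were nearer to 0, Rax at -0.27, Hmbox1 at 0.24, Zfhx2 at 0.45 and Prox1 at 0.495.

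**Figure D4:**
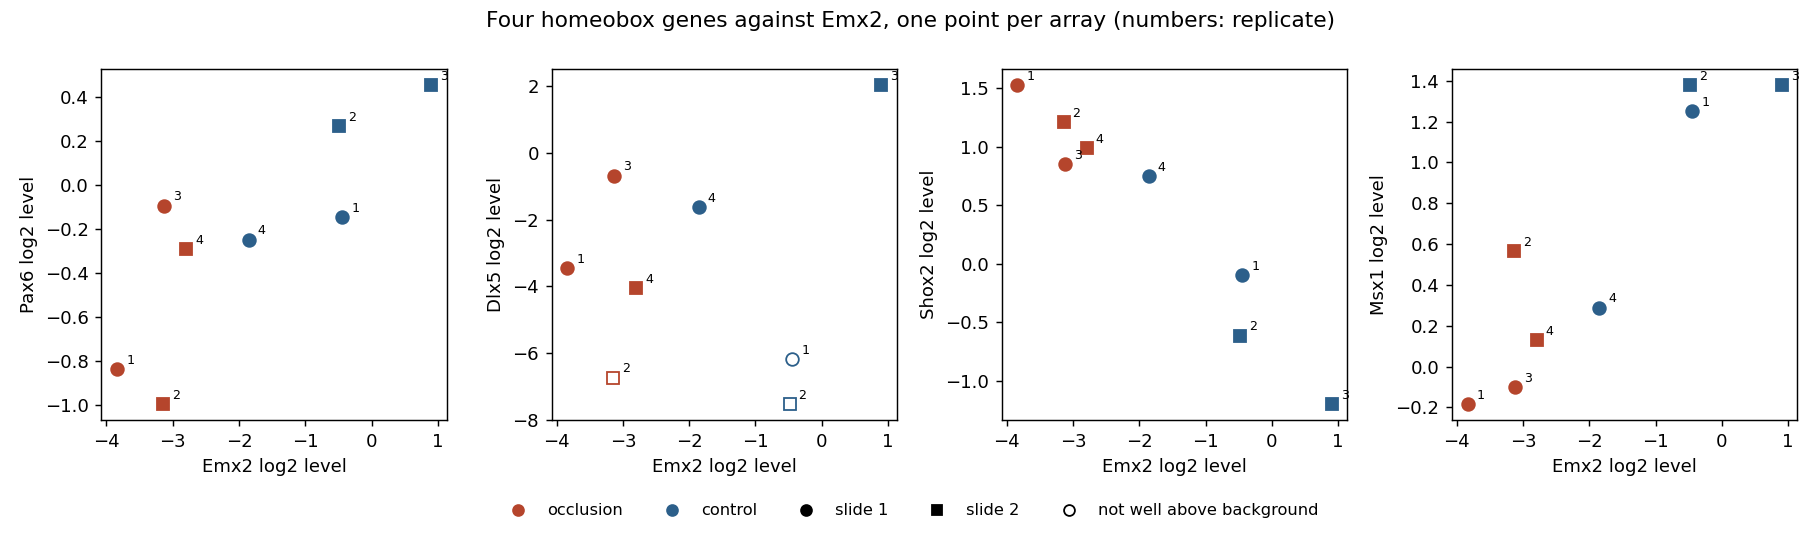
Log2 level of Pax6, Dlx5, Shox2 and Msx1 against that of Emx2, with 1 point per array, red for occlusion, blue for control, circles for slide 1, squares for slide 2 and open marks for spots not well above background. Shox2 (r = -0.973) runs opposite to Emx2, Pax6 (r = 0.826) and Msx1 (r = 0.913) run with it, and Dlx5 (r = 0.181, at the background on 3 arrays) shows little relation.

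Of 56 other forebrain transcription factors 41 were kept, 25 of them higher and 16 lower, with a median difference of 0.05 and none past the adjusted test. Unadjusted, 3 of 41 were higher and 2 lower at a p under 0.05, beside the same 7.05% and 3.74%, and groups did not overlap for 2 in each direction, beside 4.12% and 2.25%. The 2 lower without overlap were Ebf3 and Id2, and Id2 had values on only 5 arrays, where groups separate more easily. The lowest were Ebf3, a helix-loop-helix factor of early neurons (-1.24, SE 0.28), Tle4, a corepressor of deep-layer cortical neurons (-0.77, SE 0.30), and Id2, an inhibitor of helix-loop-helix factors (-0.23, SE 0.16, with values on 5 arrays). Ebf3 was within -5.43 to -4.30 on occlusion arrays and -3.91 to -3.42 on control arrays, and its difference was -0.54 with normexp, -0.65 within slide 1 and -1.83 within slide 2. It was well above background on 3 of 4 occlusion and 4 of 4 control arrays, so that size is uncertain too. The highest were Foxp1, a forkhead repressor (0.73, SE 0.22), Lef1, a Wnt effector of thalamic neurons (1.47, SE 0.50, 0.97 without control 3, and 0.64 and 2.30 within slides 1 and 2), and Tshz3, a teashirt zinc finger factor (0.59, SE 0.25). The lowest adjusted p in limma among the genes named from both lists was 0.414.

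Marker lists of the cell populations in and around the medial thalamus differed in direction between the groups and in their relation to the members. A list's summed level is the sum, over its kept markers with a value on every array, of linear intensity over the 75th percentile. All 12 kept relay neuron markers were higher on occlusion arrays (median difference 0.89, 7 of 12 at an unadjusted p under 0.05, beside 7.05% of all kept probes). Their summed level ran from 69.5 to 99.99 on occlusion arrays and from 38.9 to 76.1 on control arrays, with Amotl1 not well above background anywhere. Most of that sum came from saturated probes such as Slc17a6 and Prkcd, and over the 8 markers never saturated it ran from 4.80 to 7.95 on occlusion arrays and from 2.46 to 5.09 on control arrays. The mean of this list over arrays went against Emx2 at r = -0.878, and at -0.644 with group means removed. Of 11 kept markers of inhibitory reticular and prethalamic neurons, 10 were lower and 1 higher (median -0.80), with a summed level of 8.79 to 57.4 on occlusion arrays and 25.0 to 74.7 on control arrays, and Sp8 not above background anywhere. Gad1, the GABA-synthesising enzyme, read -2.54, -3.10, -0.83 and -1.78 on occlusion arrays, against 0.06, 0.29, 2.06 and -0.65 on control arrays. Its groups did not overlap, its difference was -1.40 within slide 1 and -3.61 within slide 2, and it followed Emx2 at r = 0.922 (0.762 with group means removed).

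The inhibitory list's mean followed Meis2 at r = 0.975, Six3 at 0.910, Dlx5 at 0.831, Pax6 at 0.776, Dlx1 at 0.609, Lhx1 at 0.591 and Emx2 at 0.568. With group means removed these were 0.968, 0.938, 0.916, 0.696, 0.720, 0.394 and 0.337. Every r of Six3, Dlx5, Lhx1 and Meis2 with a marker list rests in part on spots at the background. The striatal list's mean followed Dlx5 at r = 0.953, and the habenular list's mean, from the nucleus at the medial edge of the thalamus, went against Dlx5 at r = -0.975 and against Six3 at -0.886. Summed habenular markers ran from 5.90 to 33.2 on occlusion arrays and from 8.86 to 58.9 on control arrays, and 5 of 9 were higher and 4 lower. Over the 9 striatal markers never saturated the summed level ran from 3.55 to 5.13 on occlusion arrays and from 3.49 to 5.83 on control arrays, and 3 of 10 were higher and 7 lower. In RNA of a whole tissue piece, fewer cells of a type and less RNA per cell cannot be told apart. The part of these cell populations in the members' values was not tested.

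Markers of tissues around the thalamus were measured too. Of 9 kept cortical projection neuron markers 5 were higher and 4 lower (median 0.05), with a summed level of 6.12 to 8.73 on occlusion arrays and 7.08 to 20.0 on control arrays, and the list mean followed Emx2 at r = 0.789 (0.592 with group means removed). Lamp5, a membrane protein of cortical neurons, differed by -2.74 (SE 0.67) and had the list's second highest r with Emx2 at 0.938 (0.796 with group means removed), after Nrgn. Lamp5 was well above background on 3 of 4 occlusion and 4 of 4 control arrays, so the size of its difference is uncertain. The 5 higher markers were Neurod6 (0.05), Slc17a7 (0.56), Lhx2 (0.15), Neurod2 (0.41) and Cux2 (0.43), and Slc17a7 ran against Emx2 at r = -0.556. Of 7 kept choroid plexus and ependyma markers 1, Ttr, was higher and 6 were lower (median -0.57), with a summed level of 7.86 to 13.9 on occlusion arrays and 4.96 to 14.7 on control arrays. Their mean followed Emx2 at r = 0.619, and at 0.761 with group means removed. Ttr differed by 1.85 (SE 0.69) without overlap of the groups, and ran against Emx2 at r = -0.429 (0.502 with group means removed). Foxj1, the regulator of motile cilia, differed by -0.64 (SE 0.26) and had the list's highest r with Emx2 at 0.898 (0.876 with group means removed). Clic6, Kcne2, Folr1, Otx2 and Aqp1 lay between r = 0.364 (Aqp1) and 0.869 (Kcne2). Kl and Slc4a5 were not above background anywhere. The hippocampal list, of which 3 markers were higher and 4 lower, went against Emx2 at r = -0.826 (-0.803 with group means removed). That list includes Prox1, whose control spots have no order, and an r of the list without it was not computed. Of its other markers, Neurod1 (r = -0.449), Bok (-0.711) and Spink8 (-0.214) ran against Emx2. Wfs1 (0.313), Zbtb20 (0.495) and Grp (0.402) ran with Emx2. The list's summed level ran from 5.06 to 6.35 on occlusion arrays and from 4.73 to 5.73 on control arrays. The oligodendrocyte list (2 higher, 12 lower, median -0.41) stood at r = 0.742 (0.543 with group means removed) and the astrocyte list (5 higher, 5 lower) at r = 0.680 (0.586). The part of these markers in the Emx2 result was not tested.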

How the data were processed

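Total RNA (1 µg per array) from 8 rats was labelled and scanned in 1 channel. Per the file headers, Agilent Feature Extraction 9.5.1.1 wrote the deposited processed intensity of each spot, a linear value from which the authors' software had subtracted background, with no scaling from array to array. The series table differed from it by at most 0.497%. The design text names a reference design, but the files hold 1 channel.

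Here, control spots and outlier-flagged spots were left out, the array's 75th percentile of log2 processed intensity was subtracted, and a probe was kept when 4 or more of the 8 arrays had it well above background and each group had 2 or more values (27161 of 41012). Groups were compared with limma 3.58.1 in R 4.3.3 (lmFit and eBayes, two-sided, threshold 0.05 after Benjamini-Hochberg adjustment over the kept probes), tested on simulated data. Replicates were taken as separate animals, as the design text speaks of 4 per group. Names came from the files and from a RefSeq gene table (GRCr8, names only). A gene with several probes was represented by its brightest kept probe. Members, lists and tests were chosen with earlier results of these data known.

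Named genes are every member, the 4 highest and 4 lowest moderated statistics among other homeobox genes, the 3 highest and 3 lowest among other transcription factors, and the 8 genes most like Emx2 (4 with group means removed). Marker genes given as examples, and Slc18a2, were chosen after their values were seen. For a probe dim on all arrays of a group, a fold is a bound. On each dim array the probe's own level or the lowest level of any probe well above background was taken, whichever was higher, and their mean was set against the mean of the bright group. The number of arrays limits the precision. Alternatives were other scaling, background correction, filters, the slide or replicate number as a block, single slides, the deposited table, a trended robust variance and each array left out.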

Additional observations from a re-analysis of the deposited data

How the results depend on the processing

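The count of 0 probes at a limma adjusted p under 0.05 held under all 22 alternatives, with 1999 to 3850 probes at an unadjusted p under 0.05. The Emx2 difference kept its sign under all 22, from -3.22 (without control 4) to -2.30 (without control 3), with an adjusted p of 0.148 to 0.673, and was -2.35 with normexp. Pax6 (-1.01 to -0.27) and Lhx1 (-2.98 to -0.98) kept their sign too. Dlx1 reversed within slide 2 (-0.35) and without occlusion 1 (-0.16), occlusion 3 (-0.20) or control 2 (-0.26), and ran from -0.26 to 0.28 with single arrays left out. Dlx5 reversed within slide 1 (1.83), without occlusion 2 (0.59), control 3 (1.38) or control 4 (0.16), and without control 3 with the slide as a block (1.95, chosen after seeing the data), and ran from -1.81 to 1.38 with single arrays left out. Six3 reversed within slide 1 (0.59) and without control 3 with the slide as a block (0.37), and was -0.02 without control 3. Meis2 reversed within slide 1 (0.025). The cause of these reversals was not tested. The 3 dim probes have a value only without the filter. With the replicate number as a block the Emx2 difference was -2.76 (adjusted p = 0.450) and the count 0, with 2794 probes at an unadjusted p under 0.05. Same-numbered arrays correlated at 0.355, 0.514, -0.071 and -0.293 in their deviations from the group means. Pairs on the same slide correlated at 0.121 to 0.514. Arrays numbered 3 and 4 lie on different slides in the groups, so these values cannot tell whether the numbers pair the animals. With this block the SE was 0.28 for Six3 (0.999 without), 0.97 for Dlx5 (2.13) and 0.66 for Meis2 (1.31). It was 0.50 for Emx2 (0.52 without) and rose to 0.79 for Lhx1 (0.75). With 4 arrays a group and many member spots at the background, folds of Dlx5, Six3, Meis2 and Lhx1 are limited by signal over background.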

Other observations

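On rn3, 7 other probes lie within 200000 bases of the brighter Emx2 probe, all between 181817 and 187777 bases before it. They include Slc18a2, the vesicular monoamine transporter. Its brighter probe read -4.59, -3.29, -0.25 and -2.12 on occlusion arrays, against -2.41, -2.06, 1.03 and -0.89 on control arrays, a difference of -1.48, and followed Emx2 at r = 0.600. The second Slc18a2 probe, well above background on 4 of 8 arrays, differed by -1.52 (r = 0.537). The groups of Slc18a2 overlapped, and control 3 was the highest array on both probes, as it was for Emx2. Pdzd8, between Slc18a2 and Emx2 on the map, differed by -0.10 and 0.06 on its probes.

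Of the remaining marker lists, microglia markers were 5 higher and 5 lower on occlusion arrays (median difference -0.02), with a list mean that followed Emx2 at r = 0.163. Endothelial markers were 7 higher and 2 lower (median 0.17, r = -0.537), meningeal fibroblast markers 2 higher and 7 lower (median -0.15, r = 0.349), and hypothalamic markers 7 higher and 5 lower (median 0.05, r = -0.158). Over the 8 hypothalamic markers never saturated the summed level ran from 2.15 to 30.5 on occlusion arrays and from 2.11 to 13.2 on control arrays. With Avp, Oxt and Pomc, which were saturated on some arrays, it ran from 4.13 to 125.8 and from 4.94 to 83.8. The hypothalamic list's mean followed Dlx5 at r = 0.694, Six3 at 0.653, Dlx1 at 0.621 and Meis2 at 0.548. It followed Lhx1 at 0.262 and Pax6 at 0.243.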
